A study of Arabidopsis thaliana with 12 samples.

Results

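The genes described here are 8 glycosyltransferase genes of Arabidopsis thaliana that act late in flavonoid and sinapate metabolism, out of 37336 genes listed in the count files. They were chosen by name for the pathway that their products are linked to. Among them, 5 are linked to flavonols (UGT91A1, AT2G22590; UGT78D1, AT1G30530; UGT78D2, AT5G17050; UGT78D3, AT5G17030; UGT89C1, AT1G06000), 1 to sinapate (UGT84A2, AT3G21560) and 2 to anthocyanins (UGT75C1, AT4G14090; UGT79B1, AT5G54060). The list was drawn up with the response of these genes after 24 h already known, so that their values at 24 h are given as a description without a test.

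RNA was taken from roots of 35S:LFY-GR seedlings in the L.er background, with no other mutation (labelled WT), which were cut at 3 weeks and kept for 5 days on callus inducing medium. In this line the CaMV 35S promoter, which is active in most cell types, drives the floral regulator LEAFY joined to part of a glucocorticoid receptor. That part holds the protein outside the nucleus until a steroid such as dexamethasone is added. All cultures were harvested at the end of these 5 days, having been given dexamethasone or the mock solution 1, 6 or 24 h earlier. The 6 conditions had 2 libraries each, the biological replicates A and B, which makes 12. Both arms carry the transgene, and no plants without it are among the 12 libraries, so that an effect of dexamethasone itself cannot be told apart from one of LFY-GR.

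Reads counted on genes were between 18511462 and 66789371 per library, with a median of 50728668, and the 4 libraries of 24 h were the smallest, with at most 25879110. Reads that aligned to several places and were not counted differed at 24 h, with 11.7% and 6.90% in the dexamethasone libraries and 22.2% and 13.0% in the mock libraries. The tissue label was checked on 9 callus and root genes, all of which had more than 3 reads in every library. Their summed level at 24 h was 759 to 807 CPM (counts scaled to a common library size after TMM normalization) in dexamethasone libraries and 1014 to 1051 CPM in mock libraries, and 6 leaf mesophyll genes summed to 50.3 to 50.5 CPM and 41.0 to 49.4 CPM. Of the leaf genes, 4 had more than 3 reads in every library, while RBCS3B and CAB2 were at 0 in at least 1 library. At 24 h, 5 of the 9 callus and root genes were called lower and 1 higher by edgeR (adjusted p under 0.01). Of 4 leaf genes tested, 1 was called higher and 1 lower. Over all genes, 6.77% were called higher and 8.76% lower. The part of these differences in the results at 24 h was not tested. In whole explants, fewer cells that express a gene and less RNA per cell cannot be told apart.

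UDP-dependent glycosyltransferases move a sugar from a UDP-sugar onto a small molecule, which makes it more soluble and usually allows its storage in the vacuole. Flavonols are made from phenylalanine through the phenylpropanoid pathway and chalcone synthase, and accumulate in Arabidopsis almost only as glycosides that carry glucose or rhamnose at the 3 and 7 positions. UGT78D1 adds rhamnose, UGT78D2 glucose and UGT78D3 arabinose at position 3, and UGT89C1 adds rhamnose at position 7. UGT84A2 joins glucose to sinapate, and the resulting ester is the acyl donor for sinapoyl malate. UGT75C1 and UGT79B1 add glucose and xylose to anthocyanins. UGT91A1 belongs to another branch of the enzyme family, and no substrate is named for it here.

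On the TAIR10.1 assembly, UGT91A1 lies on chromosome 2 (9592956 to 9594579, plus strand), UGT84A2 on chromosome 3 (7595680 to 7597607, plus strand) and UGT78D1 on chromosome 1 (10814612 to 10816615, plus strand). UGT78D2 (5607788 to 5609589) and UGT78D3 (5603133 to 5604893) stand in a tandem row on the minus strand of chromosome 5, with the related glycosyltransferase gene AT5G17040 (5605201 to 5607128) between them. Over the coding sequence, UGT78D3 was identical to AT5G17040 at 86.5% of aligned bases and to UGT78D2 at 83.6%, and UGT78D2 to UGT78D1 at 81.7%. The longest stretch without a difference was 89 bases between UGT78D3 and AT5G17040 and 44 bases between UGT78D2 and UGT78D3. UGT79B1 is on chromosome 5 (21936746 to 21938396, minus strand), UGT75C1 on chromosome 4 (8122188 to 8123835, minus strand) and UGT89C1 on chromosome 1 (1820308 to 1821894, minus strand).

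Because reads were counted without strand, a read that falls on exons of overlapping genes is given to neither. UGT89C1 shares its locus with the antisense long non-coding RNA AT1G06002 (1820254 to 1821887, plus strand), which leaves only 7 of its 1587 exon bases (0.441%) to UGT89C1 alone. It had 0 reads in all 12 libraries and AT1G06002 had 1 read in all, so that these counts carry no information on the flavonol 7-O-rhamnosyltransferase. Among 27444 protein-coding genes, 466 had under 5% of exon bases free of other genes, and 432 of these were at 0 in every library, against 2801 of the other 26978. UGT75C1 overlaps AT4G06175 and the end of AT4G14100, which leaves 1201 of 1648 exon bases (72.9%). The other 6 genes overlap no annotated gene.

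**Figure D1:**
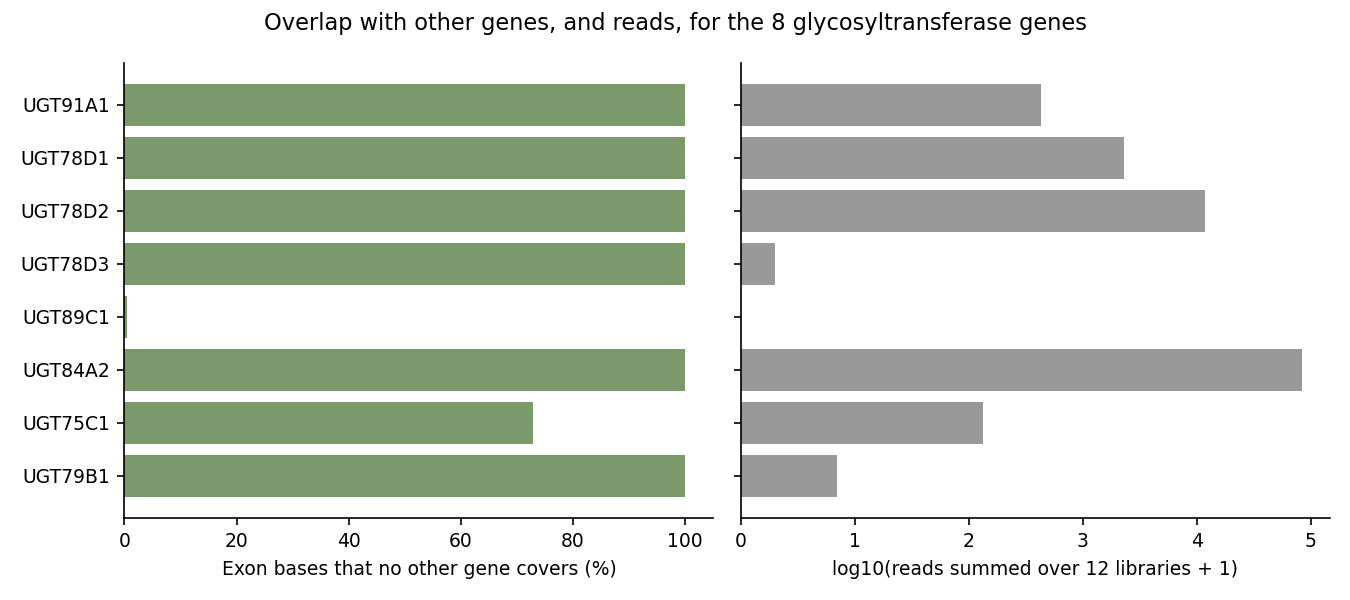
Percent of exon bases that no other annotated gene covers (left) and log10 of reads summed over 12 libraries plus 1 (right) for the 8 genes. UGT89C1 has 0.441% free exon bases and 0 reads, while UGT78D3 has 1 read although no other gene overlaps it.

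The 250 bases before the annotated start are shown for the gene with reads at 24 h in dexamethasone libraries only (UGT91A1) and the most abundant one (UGT84A2). They are also shown for the tandem neighbours with many and hardly any reads (UGT78D2 and UGT78D3) and the gene with G-boxes (UGT79B1). They were read 5′ to 3′ on the strand of the gene from the RefSeq copy of TAIR10.1, which is the Columbia genome, so that L.er may differ. Capitals mark matches to CACGTG (the G-box) or ACCTACC (a MYB element), and CCANTGG, the core bound by LFY, was searched as well, all on both strands from 250 bases before to 50 bases after the start.
UGT91A1, chr2:9592706-9592955 (+): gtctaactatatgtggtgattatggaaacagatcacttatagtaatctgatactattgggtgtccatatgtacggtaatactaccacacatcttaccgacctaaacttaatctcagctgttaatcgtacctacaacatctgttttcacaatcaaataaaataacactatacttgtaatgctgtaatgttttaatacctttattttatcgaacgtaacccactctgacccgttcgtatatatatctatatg
UGT84A2, chr3:7595430-7595679 (+): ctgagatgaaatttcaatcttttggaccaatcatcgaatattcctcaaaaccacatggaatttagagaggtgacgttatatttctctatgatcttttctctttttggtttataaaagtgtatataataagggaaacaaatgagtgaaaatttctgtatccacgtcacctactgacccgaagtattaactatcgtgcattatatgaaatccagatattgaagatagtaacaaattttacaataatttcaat
UGT78D2, chr5:5609590-5609839 (-): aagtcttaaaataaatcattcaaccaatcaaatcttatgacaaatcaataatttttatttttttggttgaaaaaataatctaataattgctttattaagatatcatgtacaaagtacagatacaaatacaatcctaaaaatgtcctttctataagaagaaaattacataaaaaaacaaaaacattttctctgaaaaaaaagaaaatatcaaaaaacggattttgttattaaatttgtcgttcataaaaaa
UGT78D3, chr5:5604894-5605143 (-): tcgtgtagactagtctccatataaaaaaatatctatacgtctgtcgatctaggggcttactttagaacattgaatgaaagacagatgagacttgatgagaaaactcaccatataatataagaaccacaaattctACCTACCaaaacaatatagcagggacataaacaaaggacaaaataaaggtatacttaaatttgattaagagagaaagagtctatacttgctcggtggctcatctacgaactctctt
UGT79B1, chr5:21938397-21938646 (-): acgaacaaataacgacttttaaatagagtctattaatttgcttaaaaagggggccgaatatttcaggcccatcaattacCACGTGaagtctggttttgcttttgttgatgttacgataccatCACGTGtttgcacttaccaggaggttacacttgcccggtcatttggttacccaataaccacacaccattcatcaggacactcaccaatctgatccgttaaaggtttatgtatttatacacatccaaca

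UGT78D3 held ACCTACC at -116 to -110 and UGT89C1 at -193 to -187, and UGT79B1 held CACGTG at -171 to -166 and at -128 to -123. None of the other 5 genes, which include the 4 with higher counts at 24 h, held any of the 3 motifs in this window. Over 27443 promoters of the same length, CCANTGG was found in 3.93%, CACGTG in 7.68% and ACCTACC in 1.38%. A match in these letters is a description of the sequence only.

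The 8 genes covered a wide range of levels, and 3 of them had more than 3 reads in every library. UGT84A2 had between 2155 and 11184 reads, with a median of 7173.5, UGT78D2 between 362 and 1642 and UGT78D1 between 68 and 307. Per kilobase of exon, the median level over 12 libraries was 71.0 CPM for UGT84A2, 12.4 CPM for UGT78D2 and 1.87 CPM for UGT78D1, and these genes kept that order in each library. UGT84A2 made up 76.6% to 85.7% of the summed level per kilobase of the 8 genes, and UGT78D2 12.3% to 20.2%. UGT75C1 and UGT79B1 were close to the lower limit of detection. UGT75C1 had 2 to 27 reads, with a median of 0.230 CPM. UGT79B1 had at most 2 reads in a library and 6 in all, and UGT78D3 had a single read, in the mock library A of 1 h. The 0 reads of UGT78D3 in the mock libraries of 24 h allow up to 3 reads each, or 0.127 CPM on average, and this limit covers counting error only.

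**Figure D2:**
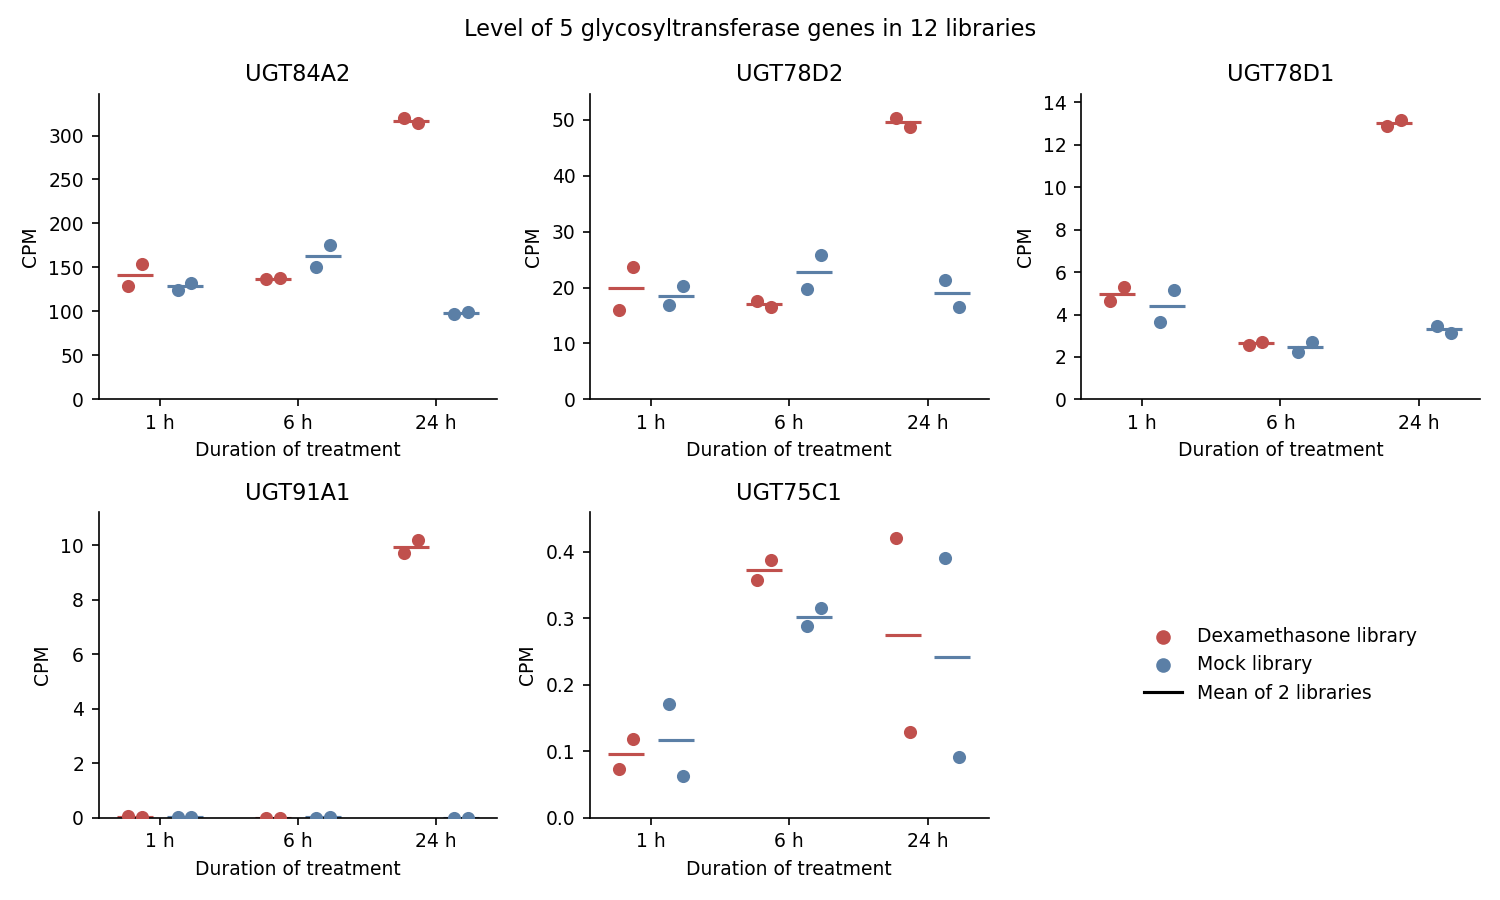
CPM in each library after 1, 6 and 24 h of treatment, with dexamethasone libraries to the left of mock libraries and a line at the mean of 2 libraries. Each panel has its own axis from 0, and after 24 h UGT84A2 was at 317 CPM in dexamethasone libraries and 97.7 CPM in mock libraries.

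After 24 h, 4 of the 8 genes had more reads in both dexamethasone libraries than in either mock library. UGT91A1 had 185 and 237 reads in the dexamethasone libraries A and B, against 0 and 0 in the mock libraries. In the 8 libraries of 1 and 6 h it had 0 to 3 reads, so that nearly all of its 431 reads came from the dexamethasone libraries of 24 h. Its level was 9.95 ± 0.333 CPM in dexamethasone libraries (SD, n = 2), at least 78.1-fold higher than in mock libraries when 3 reads are allowed in each of these.

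UGT78D1, the flavonol 3-O-rhamnosyltransferase, had 246 and 307 reads in the dexamethasone libraries of 24 h, against 89 and 68 in the mock libraries. These are 13.0 ± 0.196 CPM and 3.30 ± 0.255 CPM, and the log2 fold change was 1.98 (SE 0.19). UGT78D2, the flavonoid 3-O-glucosyltransferase, had 960 and 1135 reads in dexamethasone libraries, against 548 and 362 in mock libraries. Its level was 49.6 ± 1.15 CPM and 19.0 ± 3.41 CPM, with a log2 fold change of 1.38 (SE 0.10). Although 3 dexamethasone libraries of the earlier times had more reads of UGT78D2 than either library here, the 24 h libraries are smaller, and their CPM was the highest of all.

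UGT84A2, the sinapate glucosyltransferase, had 6098 and 7306 reads in the dexamethasone libraries of 24 h, against 2473 and 2155 in the mock libraries. Its level was 317 ± 4.39 CPM and 97.7 ± 1.51 CPM, with a log2 fold change of 1.70 (SE 0.06). UGT75C1, the anthocyanin 5-O-glucosyltransferase, had 8 and 3 reads in dexamethasone libraries and 10 and 2 in mock libraries, and its groups overlapped. UGT79B1 had 1 and 0 reads against 0 and 2, and UGT78D3 had none. A difference in UGT75C1 or UGT79B1 was not detectable at this depth. Summed over the 8 genes, the level was 389.8 ± 5.25 CPM in dexamethasone libraries and 120.3 ± 2.30 CPM in mock libraries.

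In the fit over all genes at 24 h, 4 of the 8 genes passed the filter on low counts, and all 4 were called higher, beside 6.77% of 19288 genes called higher and 8.76% called lower (15.5% in either direction). The list was drawn up with this contrast known and UGT91A1 passed the filter only through its dexamethasone libraries, so that nothing is read from this count. Groups did not overlap, with dexamethasone higher, for 28.6% of all genes tested.

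In the summed level per kilobase at 24 h, UGT84A2 made up 79.0% with dexamethasone and 78.8% with mock, UGT78D2 14.7% and 18.2%, and UGT78D1 3.29% and 2.69%. UGT91A1 made up 2.94% with dexamethasone and 0% with mock. Per kilobase of exon, UGT91A1 then stood just below UGT78D1 in both dexamethasone libraries, where it had ranked below UGT75C1 in all libraries of 6 h.

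After 1 h, none of the 3 genes with enough reads to be tested was called. UGT84A2 had 7041 and 7772 reads with dexamethasone and 5825 and 6309 with mock, and the libraries overlapped in CPM. UGT78D2 had 881 and 1192 reads against 784 and 965, and UGT78D1 255 and 268 against 170 and 245. The log2 fold changes were 0.12 (SE 0.12), 0.08 (SE 0.20) and 0.16 (SE 0.22), and the smallest adjusted p was 0.953 in edgeR's quasi-likelihood test with Benjamini-Hochberg adjustment over 20447 genes. Of the 3 genes tested 0 were called at an adjusted p under 0.01, with 0 at an unadjusted p under 0.05 and 0 by DESeq2. Over all genes 0% were called by edgeR, with 881 at an unadjusted p under 0.05 and 55 called by DESeq2. UGT91A1 had 3 and 2 reads with dexamethasone and 1 and 1 with mock, which are at or below 3 reads each, so that no fold is given. Without the dexamethasone library B, the changes of UGT78D2 and UGT84A2 were -0.21 and -0.0069, and without the mock library A those of UGT78D1 and UGT78D2 were -0.053 and -0.037.

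After 6 h, the most abundant genes were lower with dexamethasone in both libraries, but by less than the test requires. UGT78D2 had 17.7 and 16.6 CPM in the dexamethasone libraries A and B (1186 and 1157 reads), against 19.8 and 25.8 CPM in the mock libraries (1099 and 1642 reads). Its log2 fold change was -0.41 (SE 0.13), with an unadjusted p of 0.0234 and an adjusted p of 0.354 by edgeR. UGT84A2 had 136 and 137 CPM (9155 and 9587 reads), against 150 and 176 CPM (8343 and 11184 reads), and a log2 fold change of -0.25 (SE 0.09, adjusted p = 0.382 by edgeR). UGT78D1 had 171 and 190 reads against 123 and 171, and its CPM overlapped. UGT75C1 had 24 and 27 reads against 16 and 20, with a log2 fold change of 0.30 (SE 0.33, adjusted p = 0.699 by edgeR). UGT91A1 had 0 and 0 reads against 0 and 2.

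Of the 4 genes tested at 6 h, 0 were called by edgeR, beside 0.0048% of 20829 genes, with 2 at an unadjusted p under 0.05 and 0 called by DESeq2. Groups did not overlap with dexamethasone lower for 22.8% and with dexamethasone higher for 25.3% of all genes tested, so that the separation of the libraries of UGT78D2 and UGT84A2 is a common one. The log2 fold changes depended on which mock library of 6 h was left out. Without the mock library A, they were -0.58 for UGT78D2 and -0.35 for UGT84A2. Without the mock library B, that of UGT84A2 was -0.15. Those fits hold 1 mock library, which is assumed to vary as the dexamethasone libraries do, so that no call is read from them.

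**Figure D3:**
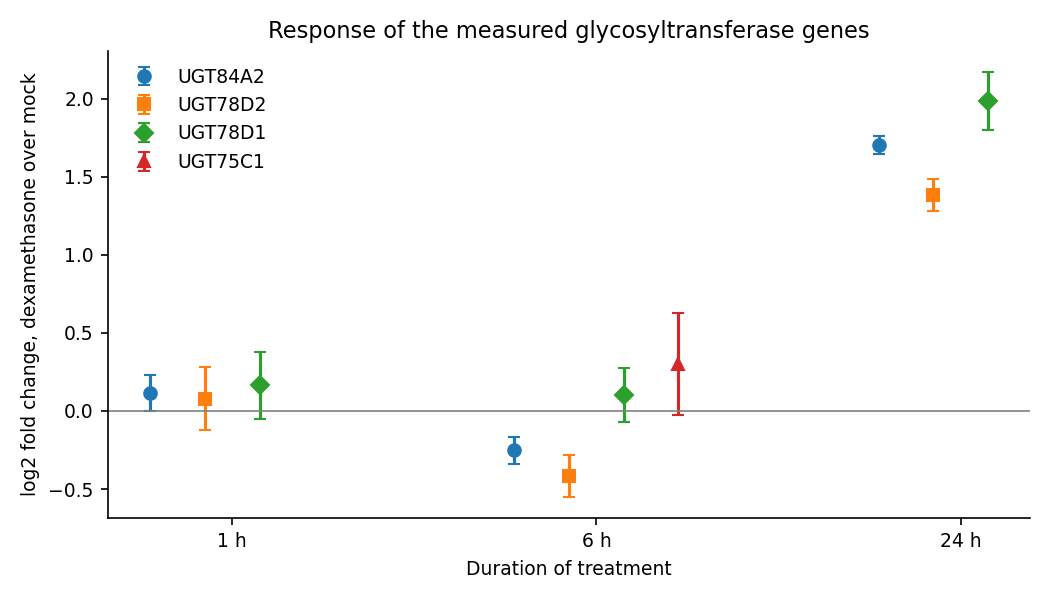
Log2 fold change of dexamethasone over mock at 1, 6 and 24 h for the genes that passed the filter on low counts, with the standard error as bars. UGT91A1 is left out since its mock libraries had at most 2 reads each. At 6 h UGT78D2 was at -0.41 and UGT84A2 at -0.25, and at 24 h they were at 1.38 and 1.70.

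The response at 6 h was compared with that at 1 h by an interaction test over all 12 libraries. The difference between responses was -0.39 on the log2 scale for UGT84A2 (SE 0.14) and -0.51 for UGT78D2 (SE 0.27), with an adjusted p of 0.551 for both by edgeR. UGT78D1 was at -0.08 (SE 0.26, adjusted p = 0.909 by edgeR) and UGT75C1 at 0.59 (SE 0.99, adjusted p = 0.805 by edgeR). Of the 5 genes tested 0 were called, beside 0.0612% of 21241 genes, with 2 at an unadjusted p under 0.05 and 0 called by DESeq2. UGT91A1 is 1 of these 2, on at most 3 reads in each of the 8 libraries concerned. It passed the filter on low counts only through its dexamethasone libraries of 24 h, so that nothing is read from its test. UGT75C1 had 3 to 8 reads in the libraries of 1 h, below the filter's minimum of 10 reads at the median library size.

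Mock explants were all of the same age at harvest, and those of 6 h and 1 h differ in when the mock solution was given. UGT78D1 had 2.22 and 2.69 CPM in the mock libraries A and B of 6 h (123 and 171 reads), against 3.64 and 5.16 CPM in those of 1 h (170 and 245 reads), which gave a log2 fold change of -0.81 (SE 0.23, adjusted p = 0.0490 by edgeR). The same gene had 2.55 and 2.72 CPM in the dexamethasone libraries of 6 h, against 4.65 and 5.31 CPM in those of 1 h, so that it was lower at 6 h in both arms. UGT84A2 had 150 and 176 CPM in mock libraries of 6 h, against 125 and 133 CPM at 1 h (log2 fold change 0.37, SE 0.11, adjusted p = 0.0610 by edgeR). UGT78D2 was at 0.33 (SE 0.16, adjusted p = 0.190 by edgeR) and UGT75C1, with 16 and 20 reads against 8 and 3, at 1.38 (SE 0.58, adjusted p = 0.147 by edgeR). UGT75C1 passed the filter on low counts only through its mock libraries of 6 h, so that nothing is read from its test.

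Of these 4 genes 0 were called at an adjusted p under 0.01 by edgeR, beside 7.32% of 20548 genes, with 2 at an unadjusted p under 0.05 and 0 called by DESeq2. UGT78D1 was called when all 12 libraries shared 1 fit (edgeR adjusted p = 0.00762), together with 3102 of all genes against 1504 before. Without one library, the log2 fold change was -1.05 to -0.56 for UGT78D1, 0.12 to 0.49 for UGT78D2 and 0.25 to 0.46 for UGT84A2. Those fits hold 1 library in a group, which is assumed to vary as the others do, so that no call is read from them. In the mock libraries of 24 h, given without a test, UGT84A2 was at 97.7 CPM, below its 163 CPM at 6 h and 129 CPM at 1 h, whereas UGT78D2 was at 19.0 CPM and overlapped with both.

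The genes of the same pathways were followed in 7 lists with 59 genes in all. These lists were chosen by known function, with results of these data known, so that counts of calls in them are a description only. At 24 h 42 of them were tested. Of these, 37 had counts above the filter's minimum (10 reads at the median library size) in both groups, and 14 of the 37 were called higher and 5 lower, beside the 6.77% and 8.76% of all genes given above. The other 5 (PAP1, AT5G17040, UGT84A1, SNG1 and scpl10) passed the filter only through their dexamethasone libraries, so that their values are given without a test. After 1 h 0 of 40 and after 6 h 0 of 41 were called by edgeR, with 3 and 7 at an unadjusted p under 0.05 and 0 and 1 called by DESeq2.

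All 5 tested enzymes of the flavonoid core pathway were called higher at 24 h, beside 6.77% of all genes. Their median log2 fold change was 4.60, against 0.01 over all genes. As the list was chosen with results of these data known, this count is a description only. TT4, the chalcone synthase, had 15347 and 16315 reads in dexamethasone libraries and 883 and 602 in mock libraries (log2 fold change 4.60, SE 0.08, edgeR adjusted p = 9.31e-32). FLS1, the flavonol synthase that makes the substrate of the 78D enzymes, had 1269 and 1483 reads against 42 and 39 (5.25, SE 0.13). CHIL, a chalcone isomerase-like protein, had 632 and 645 reads against 20 and 10 (5.58, SE 0.21), and TT7, the flavonoid 3'-hydroxylase, 254 and 314 against 20 and 26 (3.78, SE 0.24).

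The other 4 genes of this list did not pass the filter. DFR, LDOX and BAN, which lead to anthocyanins and proanthocyanidins, had at most 5 reads in any library. F3H had at most 1 read, but only 93 of its 1508 exon bases (6.17%) are free of other genes, so that its counts do not show its level.

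Of 8 regulators with counts above the minimum in both groups, 4 were called higher and 0 lower, beside 6.77% and 8.76% of all genes. MYB12, an activator of flavonol synthesis, had 498 and 625 reads in dexamethasone libraries and 74 and 42 in mock libraries (log2 fold change 3.44, SE 0.17, edgeR adjusted p = 2.34e-18). PAP1, an activator of anthocyanin synthesis, had 30 and 53 reads against 5 and 5 and passed the filter only through its dexamethasone libraries. GL3, a bHLH partner of MYB proteins, had 55 and 55 reads against 15 and 18 (1.90, SE 0.43), and HY5, a light signalling factor, 569 and 764 against 349 and 272 (1.27, SE 0.11). TT8, a bHLH factor of anthocyanin synthesis, had at most 2 reads in any library.

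The entry steps moved in both directions, with 3 of 8 genes called higher and 2 lower, beside 6.77% and 8.76% of all genes. 4CL3, a 4-coumarate:CoA ligase of the flavonoid branch, had 253 and 185 reads in dexamethasone libraries and 25 and 19 in mock libraries (log2 fold change 3.50, SE 0.28). PAL1, a phenylalanine ammonia-lyase, was at 0.48 (SE 0.05), while PAL4 was at -0.74 (SE 0.09) and 4CL1 at -0.33 (SE 0.06). RHM1, a rhamnose synthase that supplies the UDP-rhamnose used by UGT78D1, rose to 82.1 CPM in dexamethasone libraries, against 38.3 CPM in mock libraries (1.10, SE 0.08, edgeR adjusted p = 2.84e-14). It was the only 1 of 4 genes of its list that was called, beside 15.5% of all genes.

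Of the 3 sinapate and sinapoyl ester enzymes with counts above the minimum in both groups, 1 was called higher and 2 lower. Over all genes, these shares were 6.77% and 8.76%. FAH1, the ferulate 5-hydroxylase, fell to 1078 and 1274 reads in dexamethasone libraries, against 6462 and 4796 in mock libraries (log2 fold change -2.08, SE 0.07, edgeR adjusted p = 1.78e-23). ALDH2C4, which oxidises sinapaldehyde to sinapate, fell to 1029 and 1458 reads, against 2511 and 2154 (-0.75, SE 0.07). OMT1, a caffeate O-methyltransferase, was at 0.40 (SE 0.05, edgeR adjusted p = 3.15e-07). SNG1, which makes sinapoyl malate from the ester formed by UGT84A2, had 25 and 22 reads against 28 and 8 and passed the filter only through its dexamethasone libraries.

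Of the anthocyanin acylation and transport genes, 0 of 3 tested were called at 24 h by edgeR, beside 15.5% of all genes. Among these 3, 1 was at an unadjusted p under 0.05 and 0 were called by DESeq2. In mock explants of 6 h against 1 h, 3 of the 40 tested genes of the 7 lists were called, which is close to the 7.32% of all genes. MYB12 rose (1.17, SE 0.18), and PAL2 and RHM3 fell (-1.07, SE 0.13, and -0.53, SE 0.08), with edgeR adjusted p of 0.00723, 0.00305 and 0.00721.

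**Figure D4:**
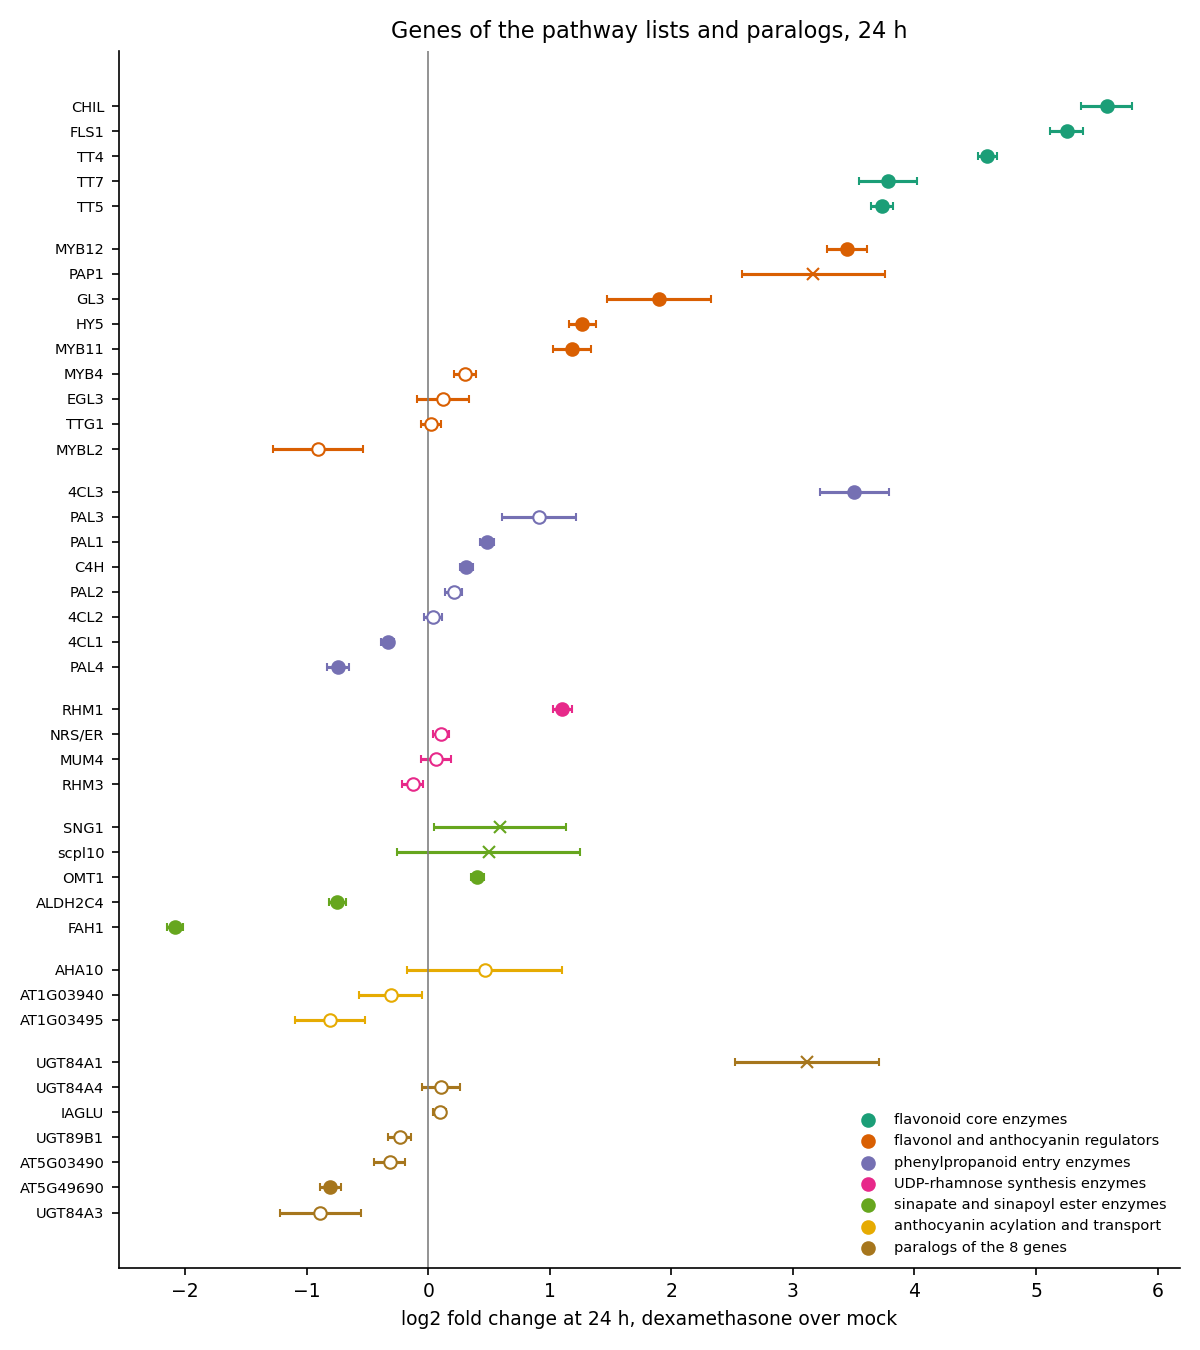
Log2 fold change of dexamethasone over mock at 24 h, with the standard error as bars, for tested genes of the 7 lists, each list in its own colour. Filled points have an adjusted p under 0.01, crosses mark genes that passed the filter only through dexamethasone libraries, and AT5G17040 is left out since it had no reads in mock libraries. The 5 flavonoid core enzymes are at the right, with TT4 at 4.60, and FAH1 is at -2.08.

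Close relatives of the 8 genes did not all move with them. AT5G17040, the gene between UGT78D2 and UGT78D3, had 32 and 55 reads in the dexamethasone libraries of 24 h and 0 and 0 in the mock libraries, at least 15.9-fold higher when 3 reads are allowed in each mock library. It passed the filter only through its dexamethasone libraries. It had 0 to 6 reads in the libraries of 1 and 6 h. Within the tandem row, reads at 24 h were thus higher with dexamethasone in 2 genes, while UGT78D3 had 0. Reads that fitted several of these genes equally well were not counted.

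The other genes of the 84A group, which glucosylate hydroxycinnamates, differed among themselves. UGT84A1 had 31 and 56 reads in dexamethasone libraries and 9 and 2 in mock libraries and also passed the filter only through its dexamethasone libraries. UGT84A3 had 50 and 28 reads against 94 and 72 (-0.89, SE 0.33, edgeR adjusted p = 0.0515), and UGT84A4 193 and 264 against 284 and 195 (0.10, SE 0.16, edgeR adjusted p = 0.716). AT5G49690, a relative of UGT91A1, fell to 582 and 767 reads, against 1383 and 1252 (-0.80, SE 0.09). Of the 6 relatives with counts above the minimum in both groups, 0 were called higher and 1 lower, beside 6.77% and 8.76% of all genes.

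Of the genes whose annotated symbol or synonym begins with UGT, without the 8 described here, 38 of 59 had counts above the minimum in both groups at 24 h. Of these, 5 were called higher and 5 lower, beside 6.77% and 8.76% of all genes. The 39 tested genes, UGT84A1 among them, had a median log2 fold change of -0.16 against 0.01 over all genes. Besides that of UGT84A1, the largest changes were those of UGT76B1 (-1.27, SE 0.32), UGT72E1 (1.15, SE 0.23) and UGT72E2 (-1.10, SE 0.09). UGT72E1 and UGT72E2 glucosylate monolignols and their aldehydes. In mock explants of 6 h against 1 h, 5 of 39 were called higher and 2 lower, beside 2.05% and 5.27% of all genes, the largest being UGT74E2 (3.93, SE 0.14), UGT71C1 (-3.65, SE 0.14), DOGT1 (1.85, SE 0.12) and UGT71C2 (-1.31, SE 0.12).

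The pattern of each gene over the 12 libraries was set beside that of all genes with a mean of at least 1 CPM, as Pearson's r of log2 CPM. These values are a description, since the libraries share 6 conditions and the 24 h libraries carry most of the range. UGT91A1 was most like TT5, the chalcone isomerase (r = 0.987), AT5G22020 (r = 0.987) and CHIL (r = 0.982). TT5 had 2564 and 2706 reads in the dexamethasone libraries of 24 h and 248 and 200 in the mock libraries. By rank, the correlation of UGT91A1 with these 3 genes was 0.660, 0.490 and 0.448, and it had at most 3 reads in each of the other 10 libraries.

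UGT84A2 was most like ELIP1, an early light-induced protein (r = 0.989), AT3G52740 (r = 0.980) and DHAR1, a dehydroascorbate reductase (r = 0.965). ELIP1 had 3200 and 3699 reads in the dexamethasone libraries of 24 h, against 476 and 394 in the mock libraries. UGT78D1 was most like CRSH (r = 0.982), AT4G09750 (r = 0.971) and ORP4A (r = 0.956), and UGT78D2 most like JMJD5 (r = 0.979), LAP1 (r = 0.979) and MTHSC70-2 (r = 0.972). Pearson's r does not carry the size of a change. At 24 h CRSH had 196 and 227 reads in dexamethasone libraries, against 187 and 158 in mock libraries. LAP1 had 4061 and 4927 reads, against 4611 and 3712. UGT75C1, on 2 to 27 reads, was most like bZIP5 (r = 0.916), AT2G25570 (r = 0.900) and ZML1 (r = 0.896). For UGT78D3, UGT79B1 and UGT89C1 no likeness is given, since they had at most 2 reads in a library. Among the 3 most abundant of the 8 genes, r was 0.912 between UGT78D2 and UGT84A2, 0.834 between UGT78D1 and UGT78D2 and 0.767 between UGT78D1 and UGT84A2.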

How the data were processed

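Per the labels, single-end RNA-seq libraries were processed by the authors with Trimmomatic 0.36, FastQC 0.11.5, STAR 2.5.3a and HTSeq 0.7.2 on TAIR10, and reads were counted per gene without strand. The deposited values are whole-number read counts per gene and library, without normalization and without pooling of replicates. HTSeq's tallies of reads given to no gene (10.4% to 27.0% of all tallied reads) were left out.

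Libraries were grouped by treatment and time in their titles. Genes were filtered by filterByExpr, normalized by TMM and tested in edgeR 4.0.16 (quasi-likelihood, with limma 3.58.1 under R 4.3.3) within each time point or pair of mock groups, and over all 12 libraries for the interaction, without a replicate term. P-values were adjusted over all genes tested (Benjamini-Hochberg), and genes were called at an adjusted p under 0.01. Each test set the difference between groups against the variation between 2 biological replicates per group, estimated with information shared over all genes tested. Standard errors were derived from the test statistic. Folds against libraries with at most 3 reads are lower bounds against 3 reads in each library. DESeq2 1.42.0 and the other alternatives are given at the end. The test was checked on simulated counts.

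The 8 genes and all lists were chosen with earlier results of these data known. Named from the lists are genes called in a comparison, at most 4 per list and comparison by absolute log2 fold change, 4 paralogs, and for each of the 8 genes the 3 genes with the highest r. Genes named as at or near 0 (DFR, LDOX, BAN, F3H, TT8, SNG1 among them) were named after their values were seen. Positions, exon overlaps and upstream bases were taken from RefSeq's TAIR10.1 with Python 3.11.15, pandas 2.3.3 and Biopython 1.88. Since the count files give no coordinates, these are not the authors'. Protein sequences were not used here.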

Additional observations from a re-analysis of the deposited data

Results flagged for a closer look

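UGT78D2 and UGT84A2 were lower in both dexamethasone libraries than in either mock library after 6 h, and higher in both after 24 h. Such a separation is common, as it held for 22.8% of all genes tested at 6 h (lower) and 28.6% at 24 h (higher). For UGT78D2 the log2 ratio of mean CPM, dexamethasone over mock, was 1.38 at 24 h and -0.41 at 6 h, a difference of 1.80. For UGT84A2 it was 1.70 at 24 h and -0.25 at 6 h, a difference of 1.95. The difference between these times was not tested, since the genes were listed with their 24 h response known, and at 6 h neither gene was called.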

How the results depend on the processing

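At 24 h, UGT78D1, UGT78D2 and UGT84A2 kept the direction of their log2 fold changes under every alternative run and without any one library. Without one library these were 1.91 to 2.06 for UGT78D1, 1.21 to 1.58 for UGT78D2 and 1.68 to 1.72 for UGT84A2. As the genes were listed with this response known, these values are a description only. For UGT91A1 only the lower bound was computed again. The lower bound of UGT91A1 was 72.3-fold to 84.8-fold without one library and 64.5-fold on counts drawn down to the smallest library. At 1 h, without one library, the changes spanned 0 for UGT78D1 (-0.053 to 0.43), UGT78D2 (-0.21 to 0.32) and UGT84A2 (-0.0069 to 0.23), at 6 h for UGT78D1 (-0.020 to 0.24), and in the interaction for UGT78D1 (-0.35 to 0.15) and UGT75C1 (-0.28 to 1.13).

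Counts of calls depended on the method more than the values did, and the cause was not tested. DESeq2 called 55 genes at 1 h, 196 at 6 h, 2798 in mock explants and 54 in the interaction, where edgeR called 0, 1, 1504 and 13. Without the filter edgeR called 7, 2, 2431 and 76. With all 12 libraries in 1 fit it called 24 at 1 h, 24 at 6 h, 1546 at 24 h (2995 before) and 3102 in mock explants, with 1 of the 8 genes in mock explants, and with the 8 libraries of 1 h and 6 h alone 2 in the interaction. At an adjusted p under 0.05 it called 1 at 1 h, 4043 in mock explants (with 1 of the 8 genes) and 24 in the interaction, and with the further demand of an absolute log2 fold change of 1 it called 804 at 24 h and 782 in mock explants. Without one library, calls were 1 to 2019 at 1 h, 1 to 8232 at 6 h, 2190 to 2776 at 24 h, 1115 to 4328 in mock explants and 4 to 19 in the interaction, and 0 to 2 of the 8 genes were called at 6 h and in mock explants.

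The letters A and B are not stated to mark a shared batch. Deviations from the group means correlated between libraries of the same letter at 0.66 at 1 h, -0.09 at 6 h and 0.07 at 24 h over 18078 genes. With the replicate block, edgeR called 413 genes at 1 h, 84 at 6 h, 3447 at 24 h, 7500 in mock explants and 12 in the interaction, and 3 of the 8 genes in mock explants (UGT78D1, UGT78D2 and UGT84A2). The most like genes by Spearman's rho shared 1 of 3 names for UGT78D1 and 0 for UGT91A1, UGT78D2, UGT84A2 and UGT75C1. With 2 libraries a group and the smallest libraries at 24 h, differences in genes of a few reads were not detectable.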
